A study of Mus musculus with 12 samples.

Results

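The NF-kB subunits and the proteins that hold them in check were followed across neutrophils from the blood of female mice. The 9 genes were Nfkb1, Nfkb2, Rela and Relb (subunits), Nfkbia and Nfkbie (cytoplasmic inhibitors), Nfkbiz (a nuclear relative of the inhibitors), and Tnfaip3 and Tnip1 (brakes on the signal upstream). They were chosen by name, with earlier results of these data known, so their calls beside those of all genes are no independent evidence. All 9 were found among the 9374 genes of the deposited expression table. Wild-type animals (WT) and animals of the genotype Hmgb1ΔMye, called KO in the library names, had received saline or lipopolysaccharide (LPS, an endotoxin of Gram-negative bacteria) at a dose of 0.5 mg/kg 16 hours before the neutrophils were taken. Each of the 4 groups had 3 libraries, and they are called WT-Saline and WT-LPS, and KO-Saline and KO-LPS. ΔMye usually denotes loss in myeloid cells, but neither the Cre line nor the age of the mice is labelled. Nor is it labelled whether each library had its own mouse, and the p-values therefore reflect the spread among these libraries alone, which may be technical.

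In resting cells, dimers of NF-kB subunits are kept in the cytoplasm by IkB proteins. Signals from Toll-like and cytokine receptors activate the IkB kinase complex, the inhibitor is degraded, and the dimers enter the nucleus and switch on inflammatory genes. Several of these targets encode inhibitors of the pathway, among them Nfkbia (IkB alpha), which takes dimers out of the nucleus again, and Tnfaip3, a ubiquitin-editing enzyme that acts upstream together with the ubiquitin-binding adaptor encoded by Tnip1. In neutrophils NF-kB is known for driving cytokine production and prolonging survival.

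Sequences just upstream of the gene start are shown for the genes that rose after LPS, Nfkbia and Tnip1, and for Nfkbie, an inhibitor gene that was not called. They are the 250 bases before the RefSeq start (build GRCm38.p6), read 5′ to 3′ on the gene's own strand, and capitals mark matches to the kappa B consensus, the 10-base site bound by NF-kB dimers, searched on both strands. The windows lie at chr12:55492648-55492897 (minus strand) for Nfkbia, chr11:54962941-54963190 (minus strand) for Tnip1 and chr17:45555450-45555699 (plus strand) for Nfkbie.
Nfkbia: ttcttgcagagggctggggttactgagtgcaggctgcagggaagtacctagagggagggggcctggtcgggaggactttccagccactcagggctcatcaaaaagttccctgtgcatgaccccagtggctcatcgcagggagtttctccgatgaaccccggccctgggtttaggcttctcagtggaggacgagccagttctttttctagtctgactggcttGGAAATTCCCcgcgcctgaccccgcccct
Tnip1: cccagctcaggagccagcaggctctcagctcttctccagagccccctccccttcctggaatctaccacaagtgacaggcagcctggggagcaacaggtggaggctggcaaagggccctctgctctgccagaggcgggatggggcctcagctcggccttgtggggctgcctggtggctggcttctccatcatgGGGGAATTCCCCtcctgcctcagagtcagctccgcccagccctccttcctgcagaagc
Nfkbie: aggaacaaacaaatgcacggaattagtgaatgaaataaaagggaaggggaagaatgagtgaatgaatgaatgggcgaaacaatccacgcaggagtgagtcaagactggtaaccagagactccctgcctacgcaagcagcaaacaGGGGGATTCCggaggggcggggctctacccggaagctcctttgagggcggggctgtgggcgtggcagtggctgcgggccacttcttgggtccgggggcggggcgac
All sites are written as they read on the gene's own strand. The Nfkbia match, GGAAATTCCC, which fits the consensus when read on the other strand, ended 20 bases before the gene start. In Tnip1, 3 overlapping matches formed 1 run that ended 47 bases before the start, and the Nfkbie match, GGGGGATTCC, ended 97 bases before it. RefSeq starts were found for 6 of the 9 genes, not for Nfkb1, Relb and Nfkbiz. Of these 6, Rela had no match in its window, while Nfkb2 had matches before each of its 3 starts (GGGAATTCCC, ending 30 bases before the first of them) and Tnfaip3 before 1 of its 2 starts (GGAAATCCCC, ending 3 bases before it). A match was present in 7.3% of all 32851 windows of this length and in 8.2% of the 27025 genes. A match is a run of letters and not a shown binding site, and the genes that rose shared it with genes that were not called.

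Per library 399702 to 526757 whole reads could be recovered from the deposited log2 values, and the median gene had 11.33 reads per library. All 14 mature neutrophil markers were in the table. Reads of Hmgb1, the targeted gene, were not lower in the KO-labelled libraries (6 to 30 reads per library, against 8 to 34 in WT). Which exons were deleted is not labelled, so this level does not check the genotype, and the libraries are called KO-labelled. KO-LPS replicate 1 stood apart. Over the 1095 genes called after LPS in WT, with WT-Saline set to 0% and WT-LPS to 100%, the median position of a gene was 29.2% in KO-LPS replicate 1, against 96.4% and 94.6% in replicates 2 and 3 and 12.3% to 19.8% in the KO-Saline libraries. Changes of the 9 genes after LPS that use this library, and the list counts, are therefore also given without it. It was singled out by its weak LPS response over the 1095 genes as a whole. These include Tnip1, which was near the saline level in this library, and Nfkbia, which was at the LPS level. Larger LPS changes or more calls without this library are therefore no independent evidence. The strand setting of the authors' counting is not given in the sources used here. Among 231 long non-coding RNAs on the other strand of a measured protein-coding gene, 168 (72.7%, 95% exact binomial interval 66.5% to 78.4%) exceeded it in reads, so which strand the values come from is uncertain for all genes. Of the 9 genes, only Nfkb2 had exons overlapping those of a gene on the other strand, namely 299 bases of Psd and 531 bases of the non-coding RNA AC114539.1, which is not in the table.

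The values of Nfkbia and Tnip1 rose after LPS in WT neutrophils, and no subunit gene was called. The strand limit given above applies to these values too. Nfkbia went from 94.4 ± 28.6 to 426 ± 49.4 CPM (CPM is the read count scaled to a common library size; SD, n = 3) and Tnip1 from 68.3 ± 15.1 to 445 ± 133 CPM. The other 7 genes did not pass the test. Calls were made with limma's moderated test at an adjusted p under 0.05 (Benjamini-Hochberg, over all 9374 genes). Of all genes, 11.7% were called in this comparison, 6.72% as rising and 4.96% as falling. Over the 9 genes the median log2 fold change was 0.27, beside 0.06 over all genes.

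Nfkbia (chromosome 12, 55489410 to 55492647, minus strand) encodes IkB alpha, the inhibitor that NF-kB itself induces. In WT-Saline replicates 1 to 3 it had 30, 60 and 45 reads, which are 72.6, 126.8 and 83.8 CPM. In WT-LPS it had 200, 178 and 231 reads, or 474.1, 375.4 and 429.3 CPM. Every LPS library was above every saline library. The log2 fold change was 2.20 ± 0.31 (standard error), which is 4.58-fold (adjusted p = 1.91e-05, limma), and the gene ranked 51 of 9374 by p. The call held without each of the 12 libraries in turn, with log2 fold changes from 2.03 to 2.43.

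Tnip1 (chromosome 11, 54910785 to 54962917, minus strand) encodes an adaptor that binds ubiquitin chains and restrains signalling to NF-kB. It had 35, 26 and 35 reads in the WT-Saline libraries (84.7, 55.0 and 65.2 CPM) and 251, 161 and 216 reads in WT-LPS (595.0, 339.5 and 401.4 CPM). The groups were again separate. The log2 fold change was 2.67 ± 0.42, or 6.36-fold (adjusted p = 6.5e-05, limma), with 2.44 to 2.84 when each library was left out. For groups that did not overlap, the background was 30.8% of all genes in this comparison (16.5% with LPS higher), and among the 9 genes Nfkbia and Tnip1 were the ones without overlap.

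**Figure D1:**
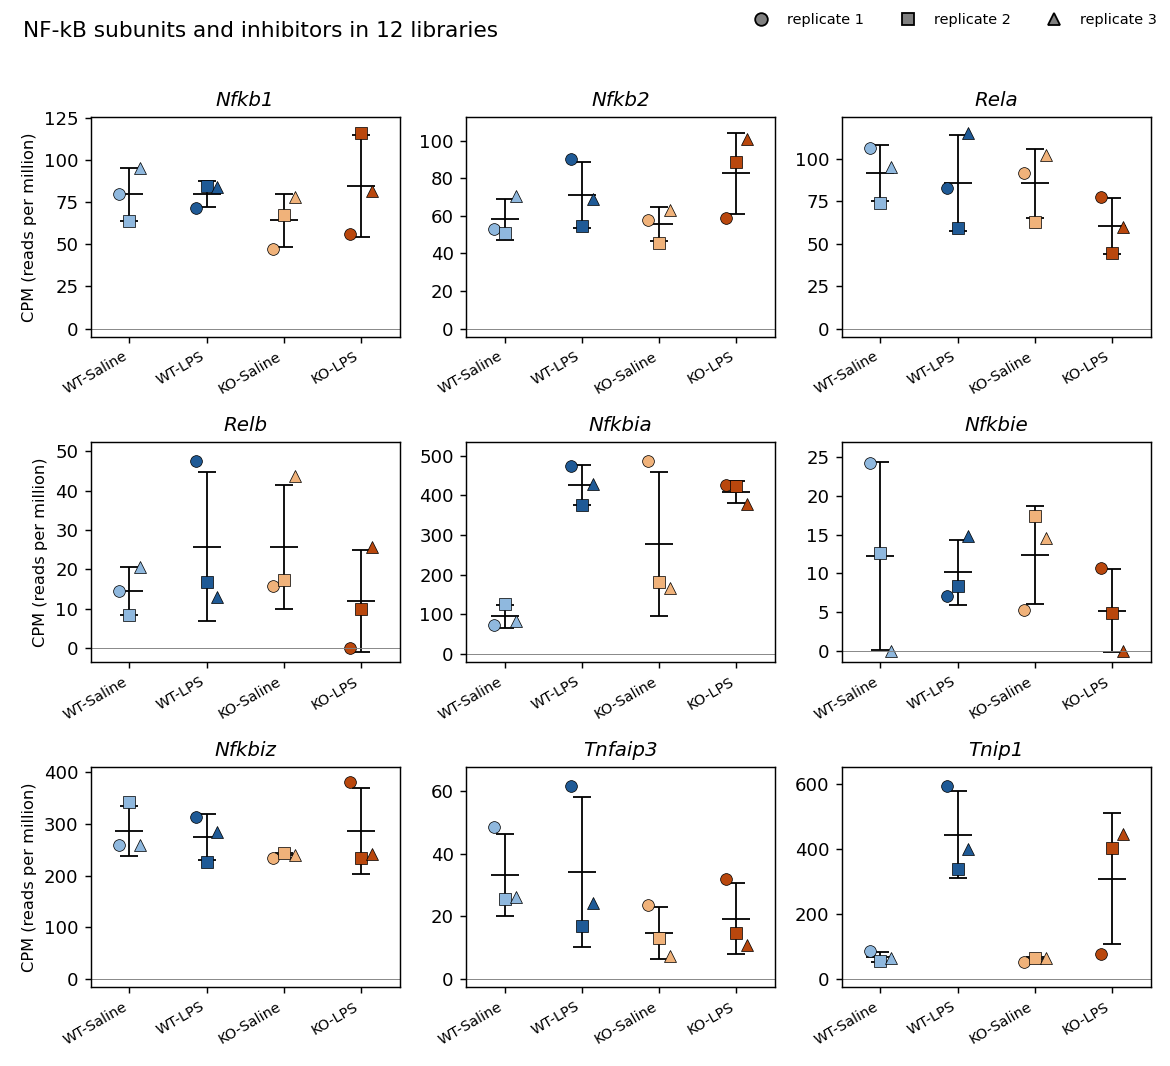
CPM of each of the 9 genes (y axis, from 0) in the 12 libraries by group (x axis); symbols mark replicate numbers, the long dash is the group mean and the bars are ± 1 SD (n = 3). Nfkbia and Tnip1 were higher in all WT-LPS than in all WT-Saline libraries, Tnip1 lay at 77.4 CPM in KO-LPS replicate 1, and Nfkbia reached 488.2 CPM in KO-Saline replicate 1.

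The KO-labelled libraries differed from this picture in single libraries. Tnip1 had 20, 29 and 27 reads in KO-Saline replicates 1 to 3 (52.5, 62.9 and 65.7 CPM) and 29, 164 and 208 reads in KO-LPS (77.4, 404.6 and 446.0 CPM). Replicates 2 and 3 were at the level of WT-LPS, and replicate 1 was just above the saline libraries. With all libraries Tnip1 rose by 1.98 ± 0.42 log2 units, 3.96-fold (adjusted p = 0.0073, limma). Without KO-LPS replicate 1 it rose by 2.80 ± 0.30, 6.95-fold (adjusted p = 5.05e-09). Leaving out KO-LPS replicate 2 (1.61, adjusted p = 0.108) or replicate 3 (1.54, adjusted p = 0.103) ended the call. It also ended under a variance prior without a trend (adjusted p = 0.199), under a robust prior (0.0582) and with only the 2 groups fitted (0.0517).

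Nfkbia showed another pattern in the same libraries. It had 186, 83 and 68 reads in KO-Saline replicates 1 to 3 (488.2, 180.1 and 165.4 CPM) and 160, 172 and 176 reads in KO-LPS (426.8, 424.4 and 377.4 CPM). All 3 KO-LPS libraries, replicate 1 included, were at the level of WT-LPS, while KO-Saline replicate 1 was above every LPS library, so the groups overlapped. The log2 difference between LPS and saline was 0.74 ± 0.31 (95% interval 0.11 to 1.38) and did not pass (adjusted p = 0.206, limma). Without KO-Saline replicate 1 it was 1.24 (adjusted p = 0.0208), and without KO-LPS replicate 1 it was 0.71 (adjusted p = 0.147). Of the 9 genes, Tnip1 was the called one in the KO-labelled libraries, where 3.35% of all genes were called, 1.99% rising and 1.35% falling (11.5% without KO-LPS replicate 1, again with Tnip1 as the called gene of the 9). It was also the gene of the 9 whose groups did not overlap there, as for 17.6% of all genes (10.8% with LPS higher). The median of the 9 was 0.36, beside 0.09 over all genes.

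With both genotypes averaged, Nfkbia and Tnip1 were called, against 16.9% of all genes (9.86% rising, 7.03% falling). Nfkbia rose by 1.47 ± 0.22 log2 units, 2.77-fold (adjusted p = 1.84e-05, limma), and Tnip1 by 2.33 ± 0.30, 5.02-fold (adjusted p = 2.1e-06). Without KO-LPS replicate 1 the values were 1.45 and 2.73 (23.8% of all genes called), and both calls held without each library in turn. The averaged comparison uses the same libraries as the single ones and is not further evidence.

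The subunit genes were measured with enough reads for a moderate bound in 3 cases. Rela, which encodes the main activating subunit, had 44, 35 and 51 reads in WT-Saline and 35, 28 and 62 after LPS. The KO-labelled libraries held 35, 29 and 42 reads with saline and 29, 18 and 28 with LPS. Its libraries overlapped between saline and LPS in both genotypes. The log2 differences were -0.13 in WT (95% interval -0.87 to 0.61), -0.50 in KO-labelled libraries (-1.24 to 0.24) and -0.32 averaged (-0.84 to 0.21; adjusted p = 0.451, limma). The values without KO-LPS replicate 1 were -0.69 in KO-labelled libraries (-1.47 to 0.09) and -0.41 averaged (-0.93 to 0.11).

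Nfkb1, whose product is cut to a subunit without an activation domain, had 33, 30 and 51 reads in WT-Saline and 30, 40 and 45 after LPS. With the KO label there were 18, 31 and 32 reads with saline and 21, 47 and 38 with LPS. Its averaged log2 difference after LPS was 0.19 (95% interval -0.33 to 0.71; adjusted p = 0.679, limma), and 0.32 without KO-LPS replicate 1 (-0.19 to 0.83). In the KO-labelled libraries it was 0.36, and 0.62 without KO-LPS replicate 1 (-0.14 to 1.38). Nfkb2, the precursor gene of the alternative pathway, had 22, 24 and 38 reads in WT-Saline and 38, 26 and 37 after LPS. The KO-labelled libraries held 22, 21 and 26 reads with saline and 22, 36 and 47 with LPS. Its averaged difference was 0.41 (-0.13 to 0.95; adjusted p = 0.325), and 0.52 without KO-LPS replicate 1 (-0.02 to 1.06; adjusted p = 0.166). In the KO-labelled libraries it was 0.54, and 0.77 without KO-LPS replicate 1 (-0.04 to 1.58). With all libraries the averaged intervals of these 3 genes lay within 1 log2 unit of 0, and without KO-LPS replicate 1 that of Nfkb2 reached beyond it. This bound does not hold within each genotype. In the KO-labelled libraries without KO-LPS replicate 1, the intervals of all 3 reached beyond 1 log2 unit. Nfkb2 reads could include those of Psd, which had 98.2 reads per library.

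Relb, the partner of the Nfkb2 product, was sparse. It had 6, 4 and 11 reads in WT-Saline and 20, 8 and 7 after LPS. With the KO label there were 6, 8 and 18 reads with saline and 0, 4 and 12 with LPS. The 0 in KO-LPS replicate 1 allows up to 8.0 CPM, taking a floor of 3 reads and counting error only. The averaged log2 difference was -0.54 (-1.85 to 0.78; adjusted p = 0.63, limma), and 0.08 without that library (-1.01 to 1.17). The bounds in the single comparisons were wider, at 0.64 in WT (-1.22 to 2.50) and -1.72 in KO-labelled libraries (-3.58 to 0.14). The latter was -0.49 (-2.11 to 1.14) without KO-LPS replicate 1.

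Among the remaining inhibitors, Nfkbiz was abundant and its interval was narrow. It encodes IkB zeta, a nuclear cofactor needed for a part of the NF-kB targets. It had 107, 162 and 139 reads in WT-Saline and 132, 107 and 153 after LPS. The KO-labelled libraries held 89, 112 and 99 reads with saline and 143, 95 and 113 with LPS. The group means lay between 239 ± 4.92 CPM in KO-Saline and 287 ± 48.2 CPM in WT-Saline (SD, n = 3). The log2 difference after LPS was -0.06 in WT (95% interval -0.57 to 0.44), 0.22 in KO-labelled libraries (-0.29 to 0.73) and 0.08 averaged (-0.28 to 0.44; adjusted p = 0.818, limma). It was -0.01 in KO-labelled libraries (-0.50 to 0.48) and -0.03 averaged (-0.36 to 0.29) without KO-LPS replicate 1.

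Tnfaip3 had 20, 12 and 14 reads in WT-Saline and 26, 8 and 13 after LPS. With the KO label there were 9, 6 and 3 reads with saline and 12, 6 and 5 with LPS. Unlike Tnip1, which encodes its partner, it was not called after LPS, at 0.12 averaged over genotypes (-0.86 to 1.11; adjusted p = 0.896, limma) and -0.09 without KO-LPS replicate 1 (-1.11 to 0.93). In the KO-labelled libraries the Tnfaip3 difference was 0.36, and -0.07 without KO-LPS replicate 1 (-1.59 to 1.45). Nfkbie, the gene of IkB epsilon, had 10, 6 and 0 reads in WT-Saline and 3, 4 and 8 after LPS. The KO-labelled libraries held 2, 8 and 6 reads with saline and 4, 2 and 0 with LPS. At this depth no change was detectable, with an averaged interval of -2.09 to 1.21 (-2.48 to 0.85 without KO-LPS replicate 1). In the KO-labelled libraries the Nfkbie difference was -1.53, and -2.27 without KO-LPS replicate 1 (-4.75 to 0.21).

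**Figure D2:**
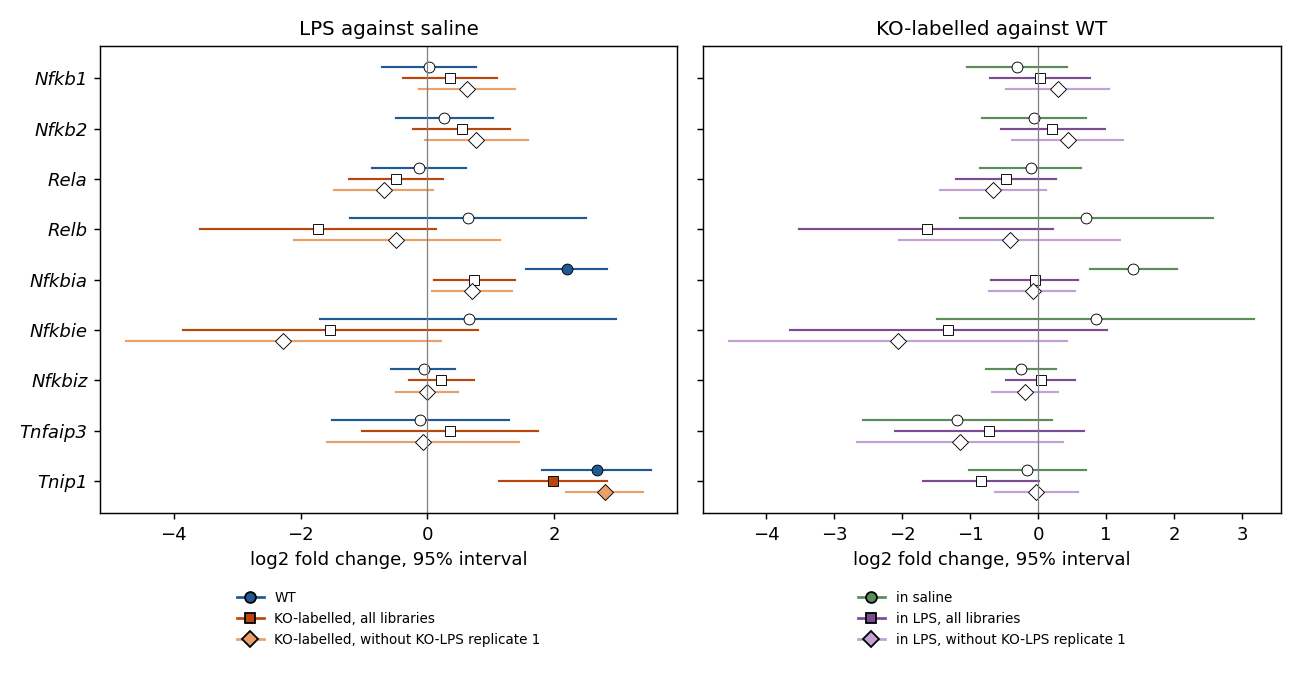
Log2 fold changes (x axis) with 95% intervals from limma for the 9 genes (y axis); filled symbols passed an adjusted p under 0.05. Left, LPS against saline, where Tnip1 passed in both genotypes and Nfkbia in WT (2.20); right, KO-labelled against WT libraries, where none of the genes passed and Nfkbia in saline lay at 1.40.

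The comparison of genotypes asked whether the Hmgb1ΔMye label went with another level of these genes. In saline, Nfkbia was the gene of the 9 that differed most, with 278 ± 182 CPM in KO-Saline against 94.4 ± 28.6 CPM in WT-Saline (SD, n = 3). All 3 KO-Saline libraries were above all WT-Saline libraries. The log2 difference was 1.40 ± 0.31, 2.64-fold, and ranked 8 of 9374 genes by p, but it did not pass (unadjusted p = 0.000102, adjusted p = 0.109, limma). It passed without KO-LPS replicate 1, which enters only through the shared estimate of the spread (adjusted p = 0.00838), and with libraries weighted by their quality (1.37, adjusted p = 0.0205). Without KO-Saline replicate 1 the difference was 0.90 (adjusted p = 0.546).

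None of the 9 genes was called in saline, where limma called 1 gene, 0.0107% of all (0.331% without KO-LPS replicate 1), and 643 genes (6.86%) had an unadjusted p under 0.05. The groups did not overlap for 3 of the 9 (13.0% of all genes), with Nfkbia higher (6.77% of all genes) and Nfkbiz and Tnfaip3 lower in KO-Saline (6.19%). Nfkbiz differed by -0.25 ± 0.25 and Tnfaip3, with 7.3 to 23.6 CPM against 25.4 to 48.4 CPM, by -1.19 ± 0.68 (unadjusted p = 0.0909, adjusted p = 0.794). For Rela, Nfkb1 and Nfkb2 the log2 differences were -0.11 (-0.85 to 0.63), -0.31 (-1.05 to 0.43) and -0.06 (-0.83 to 0.70).

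After LPS, Nfkbia stood at 410 ± 27.9 CPM in KO-LPS and 426 ± 49.4 CPM in WT-LPS (SD, n = 3), a log2 difference of -0.05 (95% interval -0.69 to 0.58), or -0.08 without KO-LPS replicate 1. Tnip1 differed by -0.84 ± 0.42 (unadjusted p = 0.0554, adjusted p = 0.949, limma), and by -0.03 (-0.63 to 0.58) without KO-LPS replicate 1. None of the 9 was called, as for all genes (0.00%; limma called 0 genes, voom on the recovered reads 1, and 471 genes, 5.02%, had an unadjusted p under 0.05). The groups overlapped for all 9 genes, and did not for 10.1% of all genes. The interaction, the LPS response in the KO-labelled libraries less the WT response, was -1.46 ± 0.44 log2 units for Nfkbia (unadjusted p = 0.00251, rank 34 of 9374) and did not pass (adjusted p = 0.676). Without KO-LPS replicate 1 it was -1.49 ± 0.42 (adjusted p = 0.344). For Tnip1 it was -0.68 ± 0.59 with all libraries and 0.13 ± 0.40 without KO-LPS replicate 1. That an LPS response of Nfkbia was called in WT and not in KO-labelled libraries is therefore not shown as a difference between the genotypes. None of the 9 passed for the interaction (0.00% of all genes called; 560 genes, 5.97%, at an unadjusted p under 0.05; 0.0320% called without KO-LPS replicate 1), nor averaged over treatments, where the largest difference by p was that of Nfkbia at 0.67 ± 0.22 (unadjusted p = 0.00462, adjusted p = 0.721). There limma called 0.0107% of all genes (0.117% without KO-LPS replicate 1), and 5.65% had an unadjusted p under 0.05.

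To compare the genes with each other, CPM was divided by the length of the merged GENCODE M21 exons in kilobases. This length pools the exons of all annotated transcripts, with 1610 bases for Nfkbia and 12061 for Nfkb1, and the order depends on it. By CPM alone, the WT-Saline mean of Nfkb1 (79.4) was above those of Tnip1 (68.3) and Nfkb2 (58.3). That of Nfkbiz (287) was above that of Nfkbia (94.4). In WT-Saline the highest levels were those of Nfkbia (58.6 ± 17.8 CPM per kb) and Nfkbiz (57.1 ± 9.61), whose libraries overlapped, followed by Rela (29.9 ± 5.37), Tnip1 (19.3 ± 4.27) and Nfkb2 (12.7 ± 2.38), each separate from the next (SD, n = 3). Nfkb1 (6.59 ± 1.31), Tnfaip3 (4.61 ± 1.81), Nfkbie (4.04 ± 3.98) and Relb (3.73 ± 1.55) overlapped with their neighbours in that order. In WT-LPS the order began with Nfkbia (265 ± 30.7) and Tnip1 (126 ± 37.7), both separate from the next, and Tnip1 thus stood above Nfkbiz (54.7 ± 8.86) and Rela (27.9 ± 9.18). In KO-LPS it was the same for the first 5 places, with overlap between Tnip1 (87.4 ± 57.1) and Nfkbiz.

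**Figure D3:**
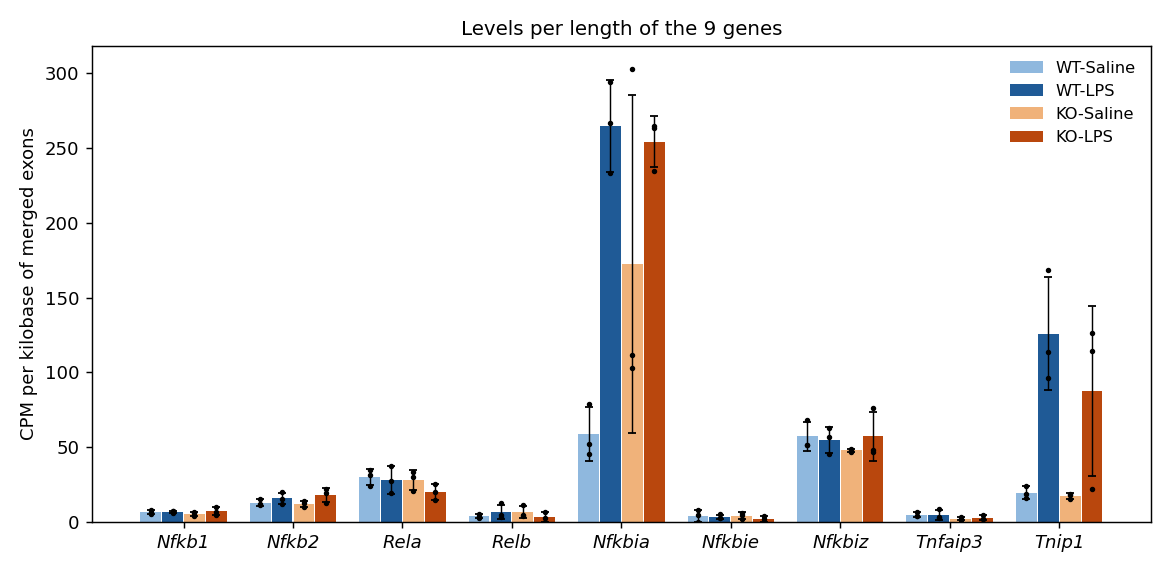
Level per length (y axis, CPM per kilobase of merged exons) of the 9 genes (x axis) in the 4 groups; bars are means, error bars ± 1 SD and dots the 3 libraries. Nfkbia stood highest in WT-LPS (265) and KO-LPS (254), and KO-Saline had 1 library at the level of the LPS groups.

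The ratio of Nfkbia to Rela per length put the inhibitor beside the subunit it mainly holds. It was 1.30, 3.27 and 1.68 in WT-Saline and 10.9, 12.13 and 7.11 in WT-LPS. In KO-Saline it was 10.14, 5.46 and 3.09, and in KO-LPS 10.53, 18.23 and 11.99. The WT groups were separate, and in the KO-labelled libraries the lowest LPS value was just above the highest saline value. The summed level of the 4 subunit genes stayed between 40.5 and 64.8 CPM per kb in all 12 libraries, with overlap between all groups.

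The genes whose library values most resembled those of the 3 members with the most reads were found by the smallest root mean square difference of centred log2 values over the 12 libraries, among 4686 other genes in the upper part of the table by mean value. For Nfkbia these were Snx1 (0.28 log2 units), Wfdc21 (0.40) and 1700094J05Rik (0.45), where the median gene differed by 1.08. For Tnip1 they were Srgap2 (0.36), Usp38 (0.37) and Myo1g (0.38), against a median of 1.43. For Nfkbiz, which varied little, they were Pi4kb (0.17), Gpr82 (0.18) and Orm3 (0.19), against 0.58. A gene without any variation would differ by 0.97 from Nfkbia, 1.35 from Tnip1 and 0.23 from Nfkbiz. The genes nearest to Nfkbiz were thus little closer to it than a flat line. The 12 libraries share depth and treatment between genes, and the likeness is a description.

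Of 31 kinases, adaptors and other genes that carry the signal to NF-kB, all measured, 2 rose and 2 fell in WT (12.9% beside 11.7% of all genes). In the KO-labelled libraries 2 rose (6.45% beside 3.35%). Averaged over genotypes 2 rose and 2 fell, 12.9% beside 16.9% of all genes, with a median log2 fold change of 0.29 beside 0.09 over all genes (3 rose and 2 fell without KO-LPS replicate 1, 16.1% beside 23.8%). Ikbke, a kinase related to the IkB kinases, had 0 reads in all WT-Saline libraries and 329, 257 and 349 in WT-LPS, and was at least 102.7-fold higher, the floor being 3 reads per library. In KO-LPS it had 0, 286 and 318 reads, so that replicate 1 was again at the saline level. Irak3, which dampens Toll-like receptor signalling, rose by 1.55 ± 0.25 averaged over genotypes (adjusted p = 4.83e-05, limma). The ubiquitin ligase gene Traf6 changed by -1.71 ± 0.43 (adjusted p = 0.00559) and the receptor-proximal kinase gene Irak1 by -2.30 ± 0.68 (adjusted p = 0.0187). The values of Irak3, Traf6 and Irak1 without KO-LPS replicate 1 were 1.85, -2.14 and -2.63. Beyond the strand limit of all genes, exons of Ikbke and Irak3 overlap those of genes on the other strand, and their values are uncertain.

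Of 26 measured genes among 28 other subunits and regulators, 4 rose and 2 fell averaged over genotypes (23.1% beside 16.9%), and 6 rose and 5 fell without KO-LPS replicate 1 (42.3% beside 23.8%). In WT 3 rose and 2 fell (19.2% beside 11.7%), and in the KO-labelled libraries none did beside 3.35% of all genes (5 rose and 3 fell without KO-LPS replicate 1, 30.8% beside 11.5%). Nfkbid, the gene of another nuclear IkB protein, fell by 1.53 ± 0.31 on the log2 scale (adjusted p = 0.000664, limma), from 50, 59 and 58 reads in WT-Saline to 15, 16 and 11 in WT-LPS. Commd1, a gene whose product promotes removal of the Rela protein, fell by 2.04 ± 0.34 (adjusted p = 8.53e-05). Usp18 rose by 1.57 ± 0.35, Nfkbil1 by 1.42 ± 0.28, Nkiras2 by 1.07 ± 0.35 and N4bp1 by 0.90 ± 0.19. These 6 genes were also called without KO-LPS replicate 1, in the same directions, from -2.37 for Commd1 to 1.79 for Usp18. Usp18 encodes a protease that removes the ubiquitin-like modifier ISG15. Nkiras2 encodes a small GTPase-like protein that binds IkB proteins, and N4bp1 an RNase-like suppressor of cytokine production. Of these 6 genes, Nfkbid and N4bp1 had no exon overlap on the other strand. Rel, the remaining subunit gene, stood at -0.97 ± 0.43 (adjusted p = 0.122). No gene of the 3 lists was called in a genotype comparison or for the interaction. Of all genes, 0.0107% were called in saline and averaged over treatments, and 0.00% in LPS and for the interaction. At these shares the absence of calls is nothing particular to the lists.

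Of 38 measured genes among 52 known NF-kB targets, 15 rose and 5 fell averaged over genotypes, 52.6% beside 16.9% of all genes, with a median log2 fold change of 0.68 beside 0.09. Without KO-LPS replicate 1, 18 rose and 12 fell (78.9% beside 23.8%). In WT 11 rose and 6 fell (44.7% beside 11.7%). In the KO-labelled libraries 4 rose and 2 fell (15.8% beside 3.35%), and 9 rose and 9 fell without KO-LPS replicate 1 (47.4% beside 11.5%). The list was put together with earlier results of these data known, so its direction is no independent evidence. The rises were led by the acute phase gene Saa3, with 0 reads in all 6 saline libraries, by the cytokine gene Il10 (4.28 ± 0.74), by Nos2 (4.16 ± 0.57), which encodes inducible nitric oxide synthase, and by the lipocalin gene Lcn2 (3.38 ± 0.31; adjusted p = 1.66e-08, limma). Saa3 had 14, 10 and 18 reads in WT-LPS, at least 4.6-fold higher by the same floor, and 0, 92 and 72 in KO-LPS, at least 17.6-fold higher. The inflammasome sensor gene Nlrp3 changed by -1.83 ± 0.29, the growth factor gene Csf1 by -1.74 ± 0.26, the cytokine gene Il1b by -1.62 ± 0.29 and the lectin receptor gene Clec4e by -1.40 ± 0.21 (adjusted p = 3.48e-05, 1.96e-05, 0.000197 and 1.90e-05). Without KO-LPS replicate 1 the values of Il10, Nos2 and Lcn2 were 5.09, 4.47 and 3.90, and those of Nlrp3, Csf1, Il1b and Clec4e were -2.25, -2.03, -2.07 and -1.62. Exons of Il1b overlap its antisense gene Il1bos. Members of the target list thus moved in both directions while Nfkbia and Tnip1 rose.

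**Figure D4:**
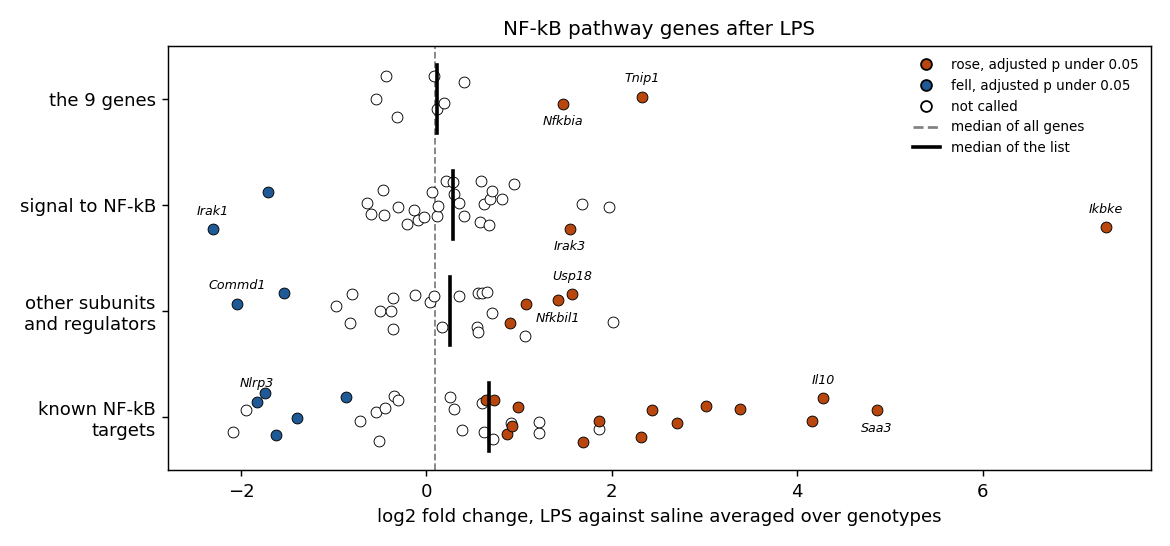
Log2 fold change after LPS averaged over genotypes (x axis) for the 9 genes and 3 lists of pathway genes (y axis; vertical scatter within a row has no meaning); filled points passed an adjusted p under 0.05, orange rising and blue falling. Black bars are list medians (0.29, 0.26 and 0.68 for the lists) and the dashed line the median of all genes (0.09).

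The samples were bulk RNA from mice that had received the LPS, and a changed share of cells of a type and a changed amount of RNA per cell cannot be told apart. Among the 14 mature neutrophil markers, 7 were called higher and 3 lower in WT (71.4% beside 11.7% of all genes). In the KO-labelled libraries 3 were called higher and 2 lower (35.7% beside 3.35%). The summed level of these markers was 14029 to 18607 CPM in WT-Saline and 18122 to 21117 CPM in WT-LPS. The dendritic cell markers (4 of 6 measured) summed to 201 to 334 CPM in WT-Saline and 16.7 to 56.9 CPM in WT-LPS, and to 150 to 195 CPM in KO-Saline and 19.7 to 160 CPM in KO-LPS. The platelet markers (3 of 6 measured) went from 523 to 779 CPM in WT-Saline to 161 to 255 CPM in WT-LPS. The monocyte and macrophage markers (6 of 10) summed to 427 to 550 CPM in WT-Saline and 593 to 687 CPM in WT-LPS. Of these 6, Ly6c2 rose (3.67 ± 0.45), Csf1r (-0.89 ± 0.27) and Apoe (-3.36 ± 0.73) fell, and the median log2 fold change was -0.47. The markers of T and NK cells (2 of 9) stood at 119 to 165 CPM and 84.4 to 213 CPM, and the erythroid marker Alas2 (1 of 5) at 4.8 to 22.4 CPM and 7.4 to 37.9 CPM. Cd79a, the measured member of 5 B cell markers, went from 9.7 to 29.6 CPM to 101 to 134 CPM. The part of these other cells in the values of Nfkbia and Tnip1 was not tested.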

How the data were processed

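RNA was sequenced from neutrophils of 12 samples, 3 in each of 4 groups, and the labels' descriptions gave the groups and replicate numbers. The authors deposited normalized log2 values for 9374 genes by NCBI Gene ID. The genome build was mm10, per the submitters' processing notes; for the aligner, counter, annotation, strand setting and gene filter, nothing was given in the sources used here. All values in each column gave whole reads within 0.001 when read as log2 CPM with 0.5 reads added. CPM, per the values, is on the authors' scaled library size (factors 0.938 to 1.044).

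The log2 values were fitted as deposited with limma 3.58.1 (R 4.3.3): 4 group means over all 12 libraries, a mean-variance trend, two-sided tests, Benjamini-Hochberg adjustment over all genes. The script was tested on simulated data. Fitted fold changes understate changes of low genes. Symbols were found for 9372 IDs in RefSeq and 9299 were matched to GENCODE M21 (GRCm38, the mm10 build; coordinates 1-based). Promoter sequences are RefSeq's. The 9 genes and all lists were chosen with earlier results of these data known. All 9 genes are named; of each pathway list, up to 4 rising and 4 falling called genes with the largest averaged change, and the genes most like the 3 members with the most reads. The alternatives were other variance models, scalings, filters and added reads, a replicate block, and leaving out each library.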

Additional observations from a re-analysis of the deposited data

How the results depend on the processing

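The calls of Nfkbia and Tnip1 after LPS in WT and averaged over genotypes held under each alternative run. Of the 63 member values, the alternatives other than leaving out a library kept direction and call in 579 cases, and those leaving out a library in 715. Beside the call changes of Tnip1 in KO-labelled libraries and of Nfkbia in saline given above, small values near 0 changed sign: Nfkb1 after LPS in WT was -0.01 with libraries centred on their median and -0.04 with quantile normalization, and Nfkb2 in KO-Saline against WT-Saline 0.01 with centring. With library weights, Nfkbiz and Tnfaip3 were -0.01 and -0.08 after LPS averaged over genotypes, and Nfkbiz -0.09 in KO-LPS against WT-LPS. The cause was not tested.

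The number of called genes moved more. Without a mean-variance trend it was 363 in WT (1095 as reported), 16 in KO-labelled libraries (314), 944 averaged (1583), and 0 between genotypes in saline and averaged (1 each). With library weights it was 904 in KO-labelled libraries, 17 between genotypes in saline, 3 averaged over treatments and 4 for the interaction. With only the compared groups it was 82 in KO-labelled libraries and 22 between genotypes in saline, where a robust prior gave 5, 2 added reads 4 and voom on the recovered reads 2. Voom, an alternative chosen after seeing the data, gave 1 between genotypes in LPS and 2 for the interaction. The cause was not tested.

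Leaving out each library gave 734 to 1427 genes in WT, 32 (without KO-LPS replicate 2) to 1076 (without KO-LPS replicate 1) in KO-labelled libraries, and 1161 to 2228 averaged. Between genotypes it gave 0 to 31 in saline, 0 to 2 in LPS and 0 to 11 averaged, and 0 to 7 for the interaction. The members whose sign changed ranged, after LPS in WT, from -0.13 to 0.16 (Nfkb1), -0.37 to 0.11 (Rela), -0.80 to 1.59 (Nfkbie), -0.17 to 0.07 (Nfkbiz) and -0.63 to 0.27 (Tnfaip3). In KO-labelled libraries they ranged from -0.01 to 0.35 (Nfkbiz) and -0.07 to 0.75 (Tnfaip3), and averaged from -1.01 to 0.08 (Relb), -1.16 to 0.06 (Nfkbie), -0.03 to 0.15 (Nfkbiz) and -0.14 to 0.32 (Tnfaip3). Between genotypes in saline the ranges were -0.16 to 0.08 (Nfkb2), -0.26 to 0.10 (Rela), -0.59 to 1.80 (Nfkbie) and -0.30 to 0.01 (Tnip1), and in LPS -0.23 to 0.29 (Nfkb1), -0.14 to 0.03 (Nfkbia) and -0.19 to 0.16 (Nfkbiz). Averaged over treatments they were -0.01 to 0.19 (Nfkb2), -0.93 to 0.15 (Relb) and -0.96 to 0.27 (Nfkbie), and for the interaction -1.12 to 0.13 (Tnip1).

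No pairing of the libraries by replicate number was seen. Over 18 pairs with the same number the deviations from group means correlated between -0.13 and 0.05. Over 36 pairs with different numbers they correlated between -0.09 and 0.1. These values do not exclude a pairing. The replicate block gave 1086, 336 and 1563 genes after LPS in WT, in KO-labelled libraries and averaged, and 2 between genotypes averaged over treatments, and changed no call of the 9 genes. The planned count models and their filter on low counts were meant for deposited counts and were not run on the log2 values. Whole reads could be recovered, but of the methods for counts only voom was run on them. Depth limits Nfkbie, Relb and Tnfaip3 most, with 4.4, 8.7 and 11.2 reads per library on average.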
